A study of Homo sapiens with 11 samples.

Results

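The glucose and fructose transporters of human HK2 cells were described as a set of 9 genes, taken by name from the RNA-seq data: SLC2A1, SLC2A2, SLC2A3, SLC2A5, SLC2A9, SLC2A12, SLC5A1, SLC5A2 and SLC5A10. They are 9 of the 58243 genes listed there and 9 of the 19645 protein-coding genes that could be matched by Ensembl identifier to positions on GRCh37 (hg19). HK2 is an immortalised line derived from proximal tubular epithelial cells of the kidney. All samples came from this line under 1 condition, in DMEM-F12 medium with 10% FBS, 1% penicillin-streptomycin and 0.05% DMSO, with no untreated or altered group beside it. RNA-seq was made in 2 libraries, and ChIP-seq of H3K4me3, H3K27ac and H3K27me3 in 2 replicates each on cells fixed with 1% formaldehyde. The input DNA and the HiChIP libraries of the study were not used here. With 1 condition and 2 libraries or peak lists per assay, the values below are descriptions with no test, and nothing states that the replicates came from separate cultures.

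Hexoses cross the plasma membrane through carriers of these families. The SLC2 genes encode the facilitative GLUT carriers, which move hexoses down their gradient, and the SLC5 genes encode the SGLT carriers, which couple sugar uptake to sodium entry. In the proximal tubule, filtered glucose is taken up at the apical side mainly by SGLT2 (SLC5A2) and further along by SGLT1 (SLC5A1), and leaves at the basolateral side through GLUT2 (SLC2A2) and GLUT1 (SLC2A1). GLUT5 (SLC2A5) and SGLT5 (SLC5A10) carry fructose, and GLUT9 (SLC2A9) is best known as a urate carrier. H3K4me3 marks promoters, H3K27ac marks active promoters and enhancers, and H3K27me3 marks chromatin silenced by Polycomb.

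Sequence at the transcription start site (TSS) was read for members whose promoters carried contrasting marks in the peak lists. Each window spans 250 bp before the TSS and the first 50 bp of the transcript, in GRCh37, the build of the peaks, on the strand of the gene. SLC2A1 had both active marks at its canonical TSS in both replicates, SLC2A12 had H3K4me3 in both, and the shown site of SLC2A9 had both marks although its canonical TSS had no H3K4me3. SLC5A2 had H3K27ac without H3K4me3 within 1 kb of the canonical TSS. These H3K27ac peaks began 753 and 902 bp downstream in replicates 1 and 2, outside the window shown. SLC5A1 had no peak of any mark within 1 kb of a TSS. Capitals mark any of 5 motifs on either strand. The motif ACGTG is 1 form of the core of the hypoxia response element, and the E-box CACGTG contains it. The form GCGTG was not searched. A GC box is built around the letters GGGCGG. The CCAAT box and the TATA box, searched as TATAAA, were the remaining ones.
SLC2A1, canonical start site, chr1:43424490-43424789, minus strand: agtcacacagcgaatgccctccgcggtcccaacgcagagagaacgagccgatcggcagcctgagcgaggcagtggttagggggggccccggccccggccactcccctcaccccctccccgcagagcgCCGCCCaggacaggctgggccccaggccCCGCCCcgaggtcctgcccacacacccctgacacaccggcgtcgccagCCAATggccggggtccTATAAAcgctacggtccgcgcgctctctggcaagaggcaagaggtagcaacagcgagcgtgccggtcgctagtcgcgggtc
SLC2A12, canonical start site, chr6:134373713-134374012, minus strand: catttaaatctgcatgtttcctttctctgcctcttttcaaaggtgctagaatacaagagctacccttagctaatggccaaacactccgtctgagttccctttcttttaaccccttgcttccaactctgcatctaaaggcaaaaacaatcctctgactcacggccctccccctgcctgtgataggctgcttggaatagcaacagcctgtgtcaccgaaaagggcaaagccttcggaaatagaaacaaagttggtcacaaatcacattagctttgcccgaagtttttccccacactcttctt
SLC2A9, start site of ENST00000506839, chr4:10020869-10021168, minus strand: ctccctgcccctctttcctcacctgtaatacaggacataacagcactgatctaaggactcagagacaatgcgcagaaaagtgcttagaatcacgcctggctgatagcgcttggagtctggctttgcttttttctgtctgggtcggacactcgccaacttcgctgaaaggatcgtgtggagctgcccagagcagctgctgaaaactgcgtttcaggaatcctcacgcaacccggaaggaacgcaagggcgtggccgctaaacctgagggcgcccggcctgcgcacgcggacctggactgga
SLC5A2, canonical start site, chr16:31494194-31494493, plus strand: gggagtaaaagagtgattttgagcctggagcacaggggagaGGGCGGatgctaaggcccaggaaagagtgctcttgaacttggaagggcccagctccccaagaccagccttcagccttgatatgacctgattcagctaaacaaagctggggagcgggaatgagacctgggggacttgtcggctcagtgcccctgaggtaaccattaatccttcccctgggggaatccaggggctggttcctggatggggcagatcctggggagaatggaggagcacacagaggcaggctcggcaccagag
SLC5A1, canonical start site, chr22:32438998-32439297, plus strand: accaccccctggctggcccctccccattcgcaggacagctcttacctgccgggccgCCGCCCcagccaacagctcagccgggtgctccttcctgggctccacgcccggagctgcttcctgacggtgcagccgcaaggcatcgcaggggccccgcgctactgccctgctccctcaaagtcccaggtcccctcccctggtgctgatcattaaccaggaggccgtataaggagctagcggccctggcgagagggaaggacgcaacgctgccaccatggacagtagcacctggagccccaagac

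The SLC2A1 window held 30 CpG dinucleotides, against a median of 23 over 19547 canonical windows of protein-coding genes. It held TATAAA from 31 to 26 bp before the TSS, CCAAT from 47 to 43 bp before it, and 2 copies of the GC box on the opposite strand. The SLC2A5 window held the same 2 motifs, with TATAAA from 29 to 24 bp before the TSS and CCAAT on the opposite strand from 17 to 13 bp before it, at a gene with little RNA and no peak at that TSS. Among all windows, TATAAA was present in 9.59%, CCAAT in 36.0% and GGGCGG in 61.8%. The SLC5A1 window held 1 GC box, from 194 to 189 bp before the TSS on the opposite strand, and 17 CpG dinucleotides. The canonical windows of SLC5A10, SLC2A12, SLC2A5, SLC5A2, SLC2A9 and SLC2A2 were poor in CpG, with 6, 5, 5, 4, 3 and 2. The lower quartile over all windows was 9, and the marked site of SLC2A9 held 18. None of the 8 canonical windows held ACGTG, present in 23.4% of all windows, or CACGTG, present in 8.82%. The form GCGTG was not counted, so this does not show that the hypoxia core is absent. SLC2A3 had no entry in the RefSeq promoter table and was not searched. A motif match describes letters in a window and not a bound site.

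The expressed transporters were dominated by SLC2A1 (GLUT1), which held 87.4% and 85.4% of the summed FPKM of the 9 genes in libraries 1 and 2. FPKM is the fragment number scaled by transcript length and by mapped fragments, here summed over the transcripts of a gene, so levels can be set side by side between genes. SLC2A1 stood at 82.4 and 79.4 FPKM in libraries 1 and 2, a mean of 80.9 ± 2.14 (SD, n = 2) and rank 634 of 19645 protein-coding genes. SLC2A3 (GLUT3), a high-affinity glucose carrier, came next at 6.14 and 6.23 FPKM, with a mean level 13.1-fold below that of SLC2A1. The urate carrier SLC2A9 stood at 2.66 and 3.63 FPKM. SLC5A2, the SGLT2 carrier of the early proximal tubule, was listed at 1.56 and 2.36 FPKM. SLC2A2, the low-affinity GLUT2 carrier, was listed at 1.16 and 1.03 FPKM. These 5 members reached an FPKM of 1 in both libraries, and 58.8% of all protein-coding genes did so.

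The other 4 members lay below that level in both libraries. In bulk RNA, few expressing cells and little RNA per cell cannot be told apart. SLC2A12 (GLUT12) stood at 0.254 and 0.233 FPKM. SLC2A5, the fructose carrier GLUT5, was listed at 0.138 and 0.0318 FPKM, so its libraries differed 4.35-fold. SLC5A10 (SGLT5) was at 0 and 0.0246 FPKM, and SLC5A1 (SGLT1) was listed at 0 in both libraries on all 4 of its transcripts. In the order SLC2A1, SLC2A3, SLC2A9, SLC5A2, SLC2A2, SLC2A12, SLC2A5, SLC5A10 and SLC5A1, both libraries of each gene lay above both of the next, except for the last pair, which overlapped at 0. The order in the middle of the set depends on the transcripts summed. Over the exons of the canonical transcripts only, SLC2A9 at 1.24 and 1.66 FPKM, SLC5A2 at 0.924 and 1.24 and SLC2A2 at 1.14 and 0.734 overlapped with their neighbours. These levels were computed from coverage, counting the reads of all transcripts of a gene in those exons. The spread between libraries at this depth sets a limit on reading the lower levels. Among protein-coding genes with a mean FPKM of 1 to 3, 4.37% differed over 2-fold between the libraries, and among those of 0.1 to 0.5 the share was 32.3%. The 1.51-fold difference of SLC5A2 compares with a median of 1.18-fold among the 1671 genes of its range.

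**Figure D1:**
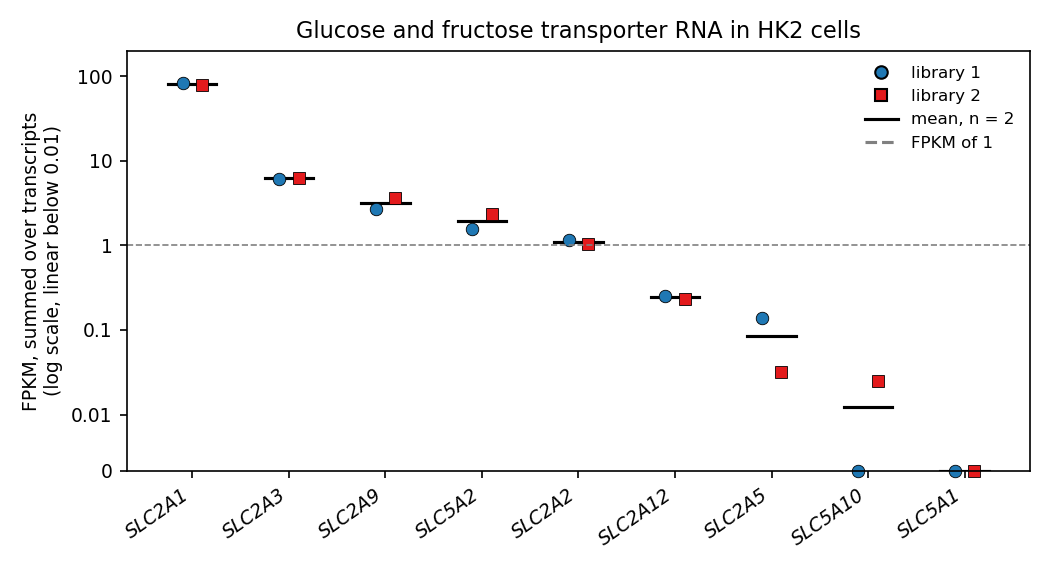
FPKM of each transporter in library 1 (circles) and library 2 (squares), summed over its transcripts, on a log axis that is linear below 0.01, with the mean of the 2 libraries as a bar and an FPKM of 1 as a dashed line. SLC2A1 sits at 82.4 and 79.4, 5 genes lie above the dashed line in both libraries, and SLC5A1 lies at 0 in both.

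The gene totals rested on different kinds of transcript. For SLC2A1, the canonical protein-coding transcript ENST00000426263 held 75.3 and 74.4 FPKM, 91.3% and 93.7% of the gene. SLC2A12 has a single annotated transcript, a protein-coding one. For SLC2A3, protein-coding transcripts held 62.2% of the gene in library 1 and 91.8% in library 2, and the difference lay largely in a retained-intron transcript, ENST00000486749, at 1.74 and 0 FPKM. The split of SLC2A2 also moved, with 98.8% and 41.5% of its FPKM on protein-coding transcripts. Its gene totals of 1.16 and 1.03 FPKM were sums over estimated transcripts, and the bases aligned to its exons numbered 20826 and 13019.

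SLC2A9 and SLC5A2 drew most of their FPKM from transcripts that are not annotated as protein-coding. Of the FPKM of SLC2A9, protein-coding transcripts held 6.75% in library 1 and 28.3% in library 2. Its canonical transcript ENST00000264784 was listed at 0 and 0.999 FPKM. In library 1 the leading transcript was ENST00000505104 at 1.07 FPKM, against 0.479 in library 2, and no peak of any mark lay within 1 kb of its start site. In library 2 the leading one was ENST00000506839 at 1.22 FPKM, against 0.949 in library 1. Neither has a defined coding sequence. For SLC5A2, the retained-intron transcript ENST00000568188 led in both libraries at 0.727 and 1.09 FPKM, above the canonical ENST00000330498 at 0.436 and 0.499 FPKM. Summed over protein-coding transcripts alone, only SLC2A1 and SLC2A3 reached an FPKM of 1 in both libraries. The share of all protein-coding genes in that sum is not given here. StringTie divides reads between overlapping transcripts by estimation, so a share of 1 transcript is less certain than a gene total.

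**Figure D2:**
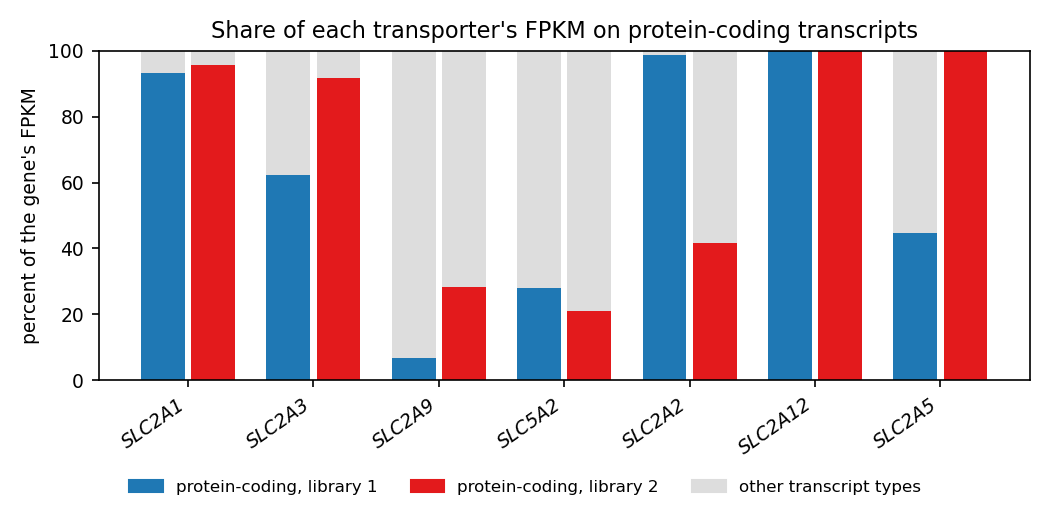
Percent of each transporter's FPKM assigned to transcripts annotated as protein-coding (coloured) and to other transcript types (grey), by library, for the 7 genes above 0 in both libraries. SLC2A1 stands at 93.2% and 95.7%, and SLC5A2 at 27.9% and 21.1%.

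Coverage along the exons of the canonical transcript showed where the reads lay. SLC2A1 was covered on all 10 exons, between 188 and 1224 reads per base in library 1 and between 172 and 1140 in library 2, with the lowest values at exons 2 and 10 in both. SLC2A3 was covered on all 10 exons as well, between 19.7 and 74.3 reads per base over both libraries. SLC2A2 had reads on all 11 exons in both libraries, with a median of 8.79 and 4.59 reads per base. All exons of the GLUT2 transcript were therefore represented. Taken over these exons only, SLC2A2 stood at 1.14 and 0.734 FPKM, so that it no longer reached 1 in library 2.

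SLC5A2 was covered unevenly. Its exons 1 to 7 averaged 1.74 and 1.26 reads per base in libraries 1 and 2, and its exons 8 to 14 averaged 7.56 and 10.5. In every one of exons 8 to 14 the coverage was at least 5.61, and in none of exons 1 to 7 did it exceed 3.41. Exons 1 and 2 had no coverage in library 1. Exons 13 and 14 lie wholly within exons of C16orf58 on the opposite strand, a gene at 13.5 and 28.2 FPKM, and exons 7 and 9 lie within exons of the antisense RNA AC026471.3 at 0.950 and 0.491 FPKM. Exons 8, 10, 11 and 12, at 6.43 to 11.9 reads per base, share no base with an exon of these genes. The sources used here do not say whether reads were counted by strand, and the part of the opposite-strand genes in the SLC5A2 level was not tested. Taken over the canonical exons only, its level was 0.924 and 1.24 FPKM. That value was computed from coverage and still includes exons 13 and 14 and reads assigned to other SLC5A2 transcripts in these exons.

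The lower members were covered thinly. SLC2A9 had reads on 11 of 12 canonical exons in library 1 and on all 12 in library 2, with none on exon 1 in library 1. SLC2A12 had no reads on exon 1 in library 2. Its last exon shares 1736 of 2612 bp with TBPL1 on the opposite strand, a gene at 8.79 and 9.45 FPKM, and held 0.889 and 0.601 reads per base. SLC2A5 was covered on 8 and 2 of 12 exons, and SLC5A10 on 0 and 3 of 15. For SLC2A3, the near-identical gene SLC2A14 could share reads, and SLC2A14 was listed at 0 in both libraries.

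**Figure D3:**
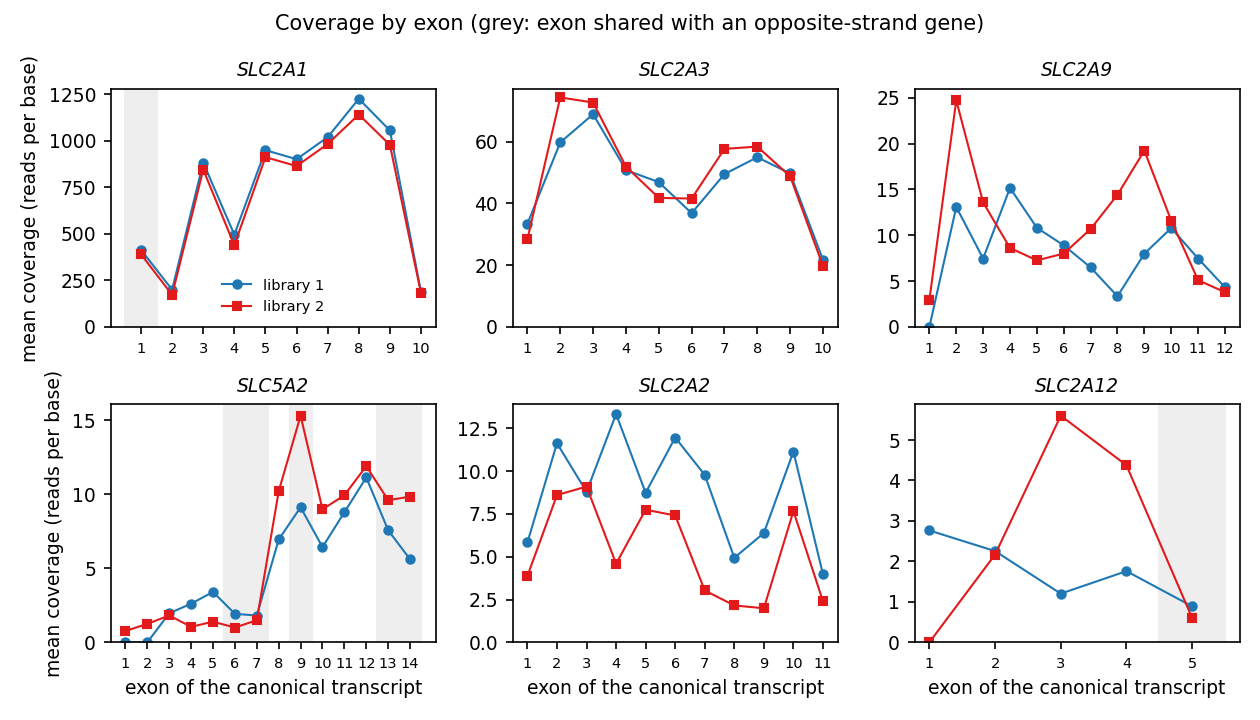
Mean coverage in reads per base over each exon of the canonical transcript for 6 transporters, library 1 as circles and library 2 as squares, with exons that share bases with a gene on the opposite strand shaded grey and a separate vertical scale in each panel. In SLC5A2, coverage steps from at most 3.41 in exons 1 to 7 to at least 5.61 in exons 8 to 14.

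Promoter marks were next read within 1 kb of every annotated TSS of each gene. An H3K4me3 peak lay there in both replicates for 5 of the 9 members (SLC2A1, SLC2A3, SLC2A9, SLC2A12 and SLC5A2), against 70.3% of all protein-coding genes. An H3K27ac peak lay there in both replicates for 4 members (SLC2A1, SLC2A9, SLC5A2 and SLC5A10), against 55% of all. Replicate 1 of H3K27ac alone gave 7 members, adding SLC2A2, SLC2A3 and SLC2A12, and replicate 2 alone gave 4. An H3K27me3 peak in both replicates was found at SLC2A3 alone, against 11.4% of all, and each replicate by itself gave 2 members. Shares of all protein-coding genes are given for both replicates together only, so the counts from a single replicate have no background beside them. The peak lists differ in number and width, so each replicate is given on its own below. H3K4me3 replicate 2 holds 73942 peaks of median width 434 bp and replicate 1 holds 29130 of 1194 bp. H3K27ac replicate 1 holds 57761 peaks of median width 1357 bp and replicate 2 holds 38639 of 657 bp. The paper also lists a larger fraction of mapped reads in peaks for H3K27ac replicate 1 than for replicate 2. It lists the lowest fractions of all for both H3K27me3 replicates. The lists carry no peak height, and a peak is either present or absent.

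By the active marks at any TSS of a gene, the members fell into several classes. SLC2A1, SLC2A9 and SLC5A2 had H3K4me3 and H3K27ac in both replicates, though no single TSS of SLC5A2 had both marks in both. They were in a class of 10502 protein-coding genes, 91.9% of which had a mean FPKM of at least 1. SLC2A3 and SLC2A12 had H3K4me3 in both replicates and H3K27ac in replicate 1 only, a class of 2052 genes with 71.3% at that level. SLC2A3 was above it and SLC2A12 below. SLC5A1 belonged to the 3680 genes with neither mark in any replicate, of which 1.77% had a mean FPKM of at least 1. SLC5A10, with H3K27ac in both replicates and no H3K4me3, belonged to a small class of 119 genes, 18.5% of which were at that level.

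**Figure D4:**
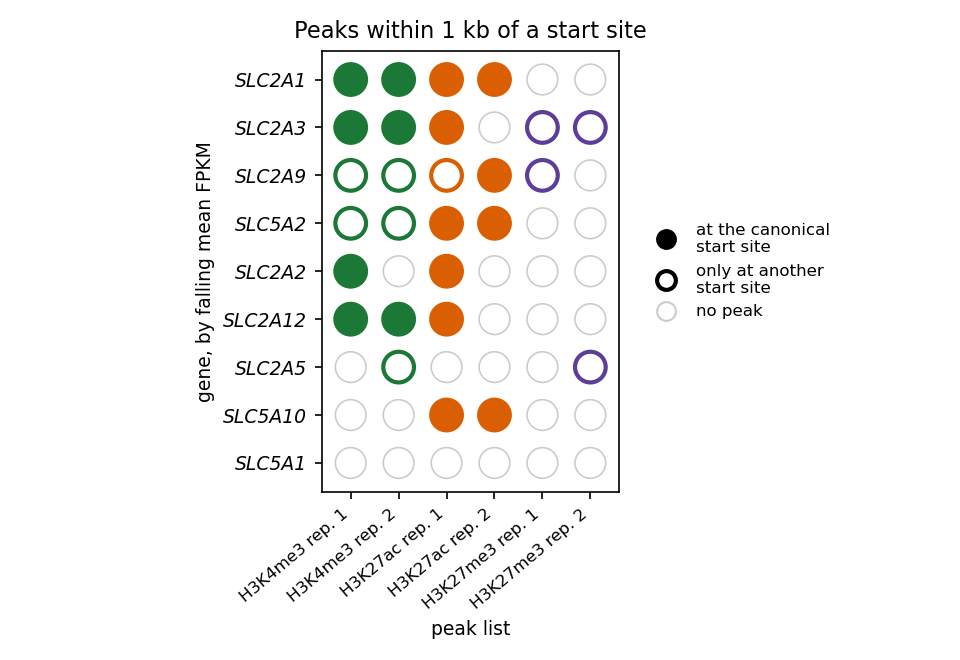
Presence of a peak within 1 kb of a start site in each of the 6 peak lists (columns) for the 9 transporters (rows, by falling mean FPKM). Filled circles show a peak at the canonical start site, coloured rings a peak only at another annotated start site, and grey rings no peak. SLC2A1 has filled circles for both active marks in both replicates, SLC5A1 has none, and the H3K27me3 peaks of 3 genes lie only at other start sites.

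SLC2A1 had the broadest acetylation of the set. It lies on chromosome 1 from 43391024 to 43424564 on the minus strand of GRCh37. In H3K27ac replicate 1, a single peak of 46.6 kb covered the whole 33.5 kb gene and reached 10777 bp upstream of the canonical TSS, rank 5 in width among 57687 peaks. In H3K27ac replicate 2, 10 peaks covered 52.4% of the gene, the widest of them 8.64 kb long and rank 61 of 38554. Both replicates therefore held wide acetylation over the gene, called as a single block in replicate 1 and as separate peaks in replicate 2. H3K4me3 at the TSS was 5.23 kb wide in replicate 1 and 2.37 kb in replicate 2, and both peaks spanned the sequence shown above. No H3K27me3 peak lay in the gene in either replicate. The promoter is shared with SLC2A1-DT, a non-coding RNA on the opposite strand at 0.405 and 0.225 FPKM.

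SLC2A3 carried different marks at its different start sites. The gene lies on chromosome 12 from 8071826 to 8171603 on the minus strand, and its canonical TSS is at 8088783. Within 1 kb of it, H3K4me3 peaks of 2.88 kb and 0.450 kb lay in replicates 1 and 2, and H3K27ac lay in replicate 1 only. The nearest H3K27ac peak of replicate 2 ended 1777 bp upstream. Annotated start sites lie 82.8 kb further upstream, and at these H3K4me3 and H3K27me3 were both present in both replicates, without H3K27ac. Between them, H3K27ac peaks centred 22.9 and 34.6 kb upstream of the canonical TSS in replicate 1 were overlapped by peaks of replicate 2, and 3 of 6 H3K27ac peaks of replicate 1 in the gene overlapped a peak of replicate 2. Transcripts from the upstream sites are in the annotation used for start sites. They are not among the SLC2A3 transcripts of the older annotation for which FPKM were listed. Their RNA was therefore not quantified for this gene, and the missing FPKM do not show that they lack RNA.

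SLC2A9, on chromosome 4 from 9772777 to 10056560, had its reproducible marks away from the canonical TSS. H3K4me3 peaks of 1.35 and 1.23 kb and H3K27ac peaks of 1.52 and 0.735 kb lay in both replicates 1361 to 2881 bp downstream of it, over the start sites of ENST00000505506 and ENST00000506839. At the canonical TSS itself, the only peak was an H3K27ac peak of 0.319 kb in replicate 2. All 7 H3K27ac peaks of replicate 1 in the gene overlapped a peak of replicate 2, among them peaks centred 33.3, 24.5 and 11.8 kb upstream and 14.7 kb downstream of the canonical TSS. In both replicates, the peak about 33 kb upstream covered the start sites of the protein-coding transcripts ENST00000506583 and ENST00000513129. No H3K4me3 peak lay within 1 kb of these sites. ENST00000506583 was listed at 0.180 and 0.0276 FPKM in libraries 1 and 2, and ENST00000513129 at 0 in both. H3K4me3 was less reproducible, with 1 of 4 peaks of replicate 1 and 1 of 16 peaks of replicate 2 overlapping. H3K27me3 peaks lay in the downstream part of the gene, 9 in replicate 1 and 5 in replicate 2, of which 2 in each overlapped.

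SLC5A2, a gene of 7.86 kb on chromosome 16 from 31494323 to 31502181, also had H3K4me3 inside the gene. The H3K4me3 peaks shared by both replicates lay 4003 to 5316 bp downstream of the canonical TSS in replicate 1 and 4502 to 4975 bp in replicate 2. Both covered the start site of the leading transcript ENST00000568188, whose exons contain exons 8 to 14 of the canonical transcript whole and no base of exons 1 to 7, the stretches on either side of the step in coverage. The peaks also lay within 1 kb of a TSS of the antisense RNA, and which transcript they belong to was not tested. H3K27ac was closer to the canonical TSS, from 753 to 2596 bp downstream in replicate 1 and from 902 to 1375 bp in replicate 2. No H3K27me3 peak lay in the gene in either replicate.

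**Figure D5:**
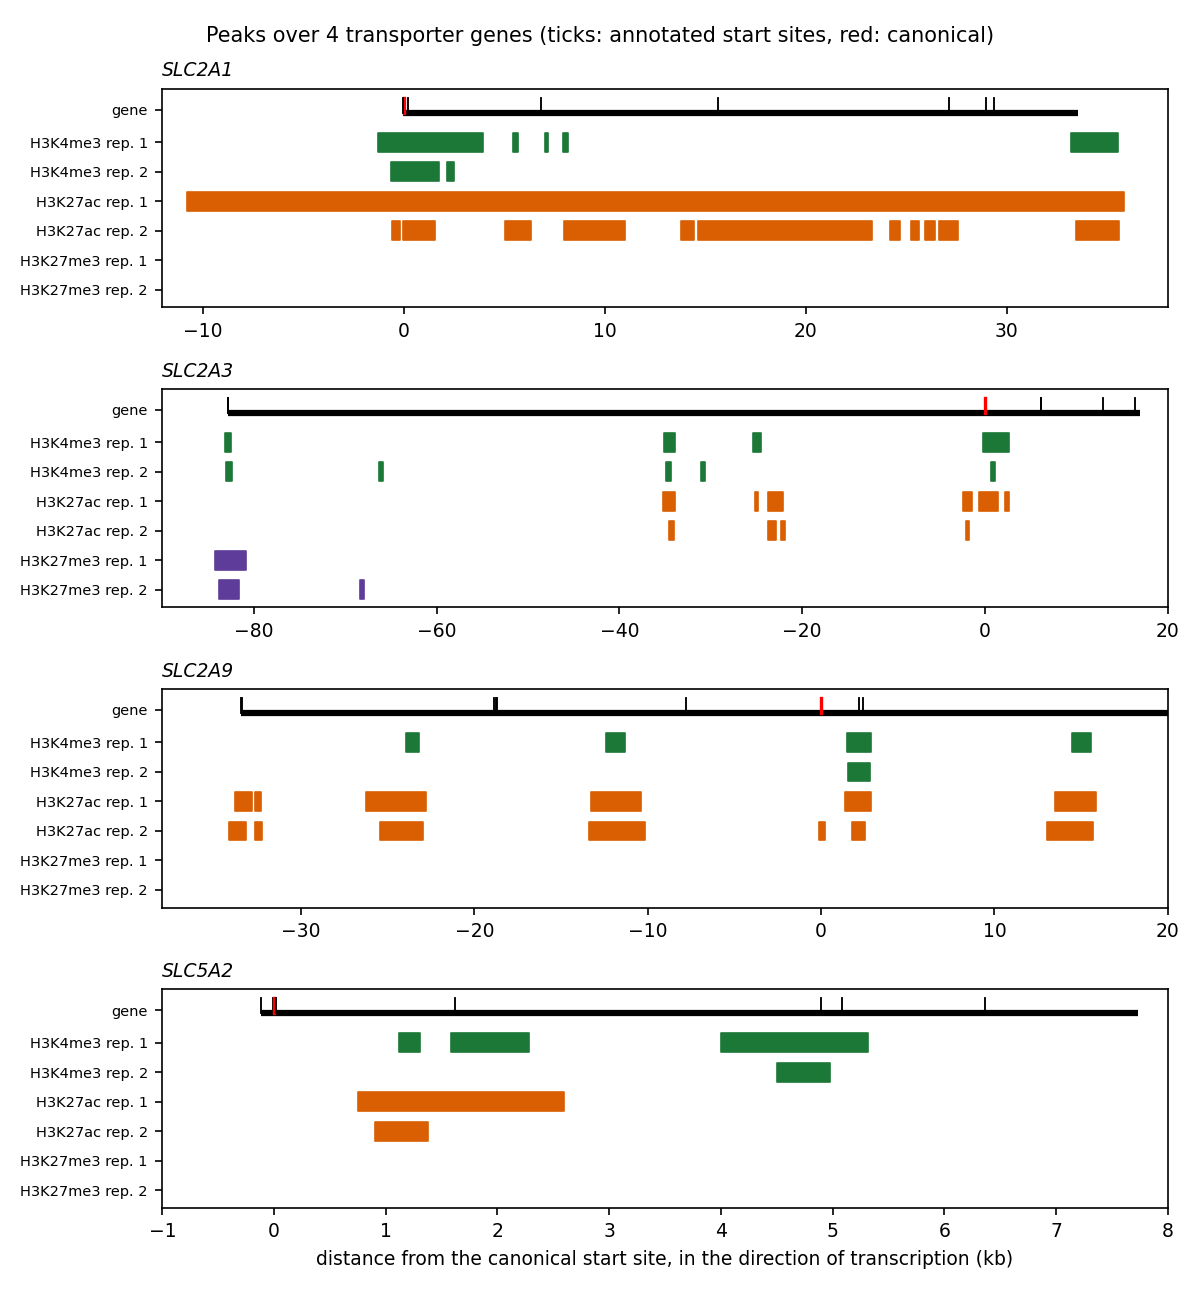
Peaks of the 3 marks in both replicates over SLC2A1, SLC2A3, part of SLC2A9 and SLC5A2, by distance from the canonical start site in kb in the direction of transcription, with the gene as a black bar and annotated start sites as ticks (canonical in red). The H3K27ac block of 46.6 kb covers all of SLC2A1, H3K27me3 in SLC2A3 lies at the far upstream start sites, and H3K4me3 in SLC2A9 and SLC5A2 shared by both replicates lies downstream of the canonical site.

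SLC2A2 and SLC2A12 had promoter peaks that depended on the replicate. SLC2A2 lies on chromosome 3 from 170714136 to 170744532. In replicate 1, an H3K27ac peak of 4.85 kb covered its canonical TSS and an H3K4me3 peak ended 921 bp upstream, but replicate 2 had no peak of any mark within 1 kb of a TSS. In the distal part of the gene, an H3K27ac peak of 5.96 kb in replicate 1 overlapped all 3 H3K27ac peaks of replicate 2. SLC2A12, on chromosome 6 from 134308719 to 134373762, had H3K4me3 peaks of 1.02 and 0.599 kb over its only TSS and H3K27ac there in replicate 1 only. Along SLC2A12, replicate 1 held 9 H3K27me3 peaks covering 20.6% of the gene, and replicate 2 held 0.

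The fructose carriers differed in how far their peaks were shared between replicates. SLC2A5, on chromosome 1 from 9095165 to 9148537, had no peak within 1 kb of its canonical TSS in any list. Its H3K4me3 peak of 0.537 kb and its H3K27me3 peak of 0.778 kb, both in replicate 2 only, lay about 19 kb upstream at other start sites. SLC5A10, on chromosome 17 from 18853658 to 18925908, had H3K27ac at its TSS in both replicates, and all 3 H3K27ac peaks of replicate 1 in the gene overlapped peaks of replicate 2. H3K4me3 peaks within SLC5A10 numbered 1 and 14, with none within 1 kb of a TSS, and its exons share bases with FAM83G on the opposite strand, which was listed at 0 in both libraries.

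SLC5A1, on chromosome 22 from 32439248 to 32509016, was the only member with no peak within 1 kb of any TSS in any of the 6 lists. H3K27me3 peaks lay within the gene, 4 in replicate 1 covering 8.33% of it and 5 in replicate 2 covering 2.70%, and 1 of each overlapped. The nearest to the canonical TSS, in replicate 2, began 1202 bp downstream. A single H3K27ac peak, in replicate 1, lay 35689 bp downstream of the TSS.

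Over the 6 lists together, the presence or absence of a peak at any TSS was the same for SLC2A1 and SLC5A2. Among the other genes of both families, SLC2A6, SLC2A8, SLC2A11, SLC5A3 and SLC5A6 shared this pattern, held by 51.4% of all protein-coding genes. At SLC5A2, the H3K4me3 and H3K27ac shared by both replicates lay at different start sites. SLC2A12 shared its pattern with SLC2A4, SLC2A10 and SLC2A13, at 8.48% of all genes. SLC5A1 shared its lack of peaks with SLC2A7, SLC5A4, SLC5A9 and SLC5A12, at 15.1%. The patterns of SLC2A2, SLC2A3, SLC2A5, SLC2A9 and SLC5A10 were each held by 1.37% of genes or fewer, and by no other gene of either family.

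Among the 8 other SLC2 genes, 5 reached an FPKM of 1 in both libraries, against 58.8% of all protein-coding genes. The highest were SLC2A6 at 23.3 and 21.1, SLC2A8 at 16.9 and 15.2 and SLC2A11 at 9.44 and 9.27 FPKM. These 3 carriers lay above SLC2A3 in both libraries, and none of them reached SLC2A1. SLC2A7 and SLC2A14 were listed at 0. Among the 9 other SLC5 genes, 2 reached that level, SLC5A6, a carrier of vitamins, at 13.9 and 13.7 and SLC5A3, a carrier of myo-inositol, at 5.65 and 5.66 FPKM. The third of this list, SLC5A4, was at 0.279 and 0.192 FPKM, and SLC5A5, SLC5A7, SLC5A8 and SLC5A12 were listed at 0.

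Of 14 genes of hexose metabolism, 8 reached an FPKM of 1 in both libraries, against 58.8% of all protein-coding genes. The highest were AKR1B1, the aldose reductase that opens the polyol pathway from glucose to fructose, at 388 and 384 FPKM, HKDC1 at 54.8 and 52.8 and the hexokinase HK1 at 54.0 and 52.5. Ketohexokinase (KHK), which phosphorylates fructose, was at 1.58 and 2.32 FPKM, and HK3 and the glucose-6-phosphatase gene G6PC were listed at 0. Of 13 regulators and partners of these carriers, 9 reached an FPKM of 1. TXNIP, which promotes removal of GLUT1 from the cell surface, led at 168 and 178 FPKM, followed by HIF1A, the oxygen-regulated subunit of a hypoxia factor, at 96.5 and 101. PDZK1IP1, an accessory protein of SGLT2, stood at 46.9 and 44.1 FPKM. The transcription factor gene HNF4A was listed at 0 in both libraries.

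The labelled cell type was checked against 13 markers of the proximal tubule. An FPKM of 1 in both libraries was reached by 58.8% of all protein-coding genes and by 3 of the markers. These were the brush border enzymes GGT1 at 64.1 and 58.1, DPP4 at 28.7 and 32.5 and MME at 8.31 and 7.95 FPKM. The defining endocytic receptor gene LRP2 and the organic anion carriers SLC22A6 and SLC22A8 were listed at 0. Of 13 markers of other kidney cell types, 1 reached an FPKM of 1, the collagen gene COL1A1 at 40.3 and 39.9, and 7 were listed at 0, among them its partner COL1A2. The low or absent levels of SLC5A1, SLC5A2 and SLC5A10 were therefore read in a line with few of these proximal tubule markers, and the part of that in the transporter levels was not tested.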

How the data were processed

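RNA-seq and ChIP-seq values were used as deposited. RNA was depleted of rRNA, and the authors used HISAT2 for mapping and deposited FPKM, TPM and coverage per transcript from StringTie 1.3.3. FPKM were summed per gene. The paper names hg19 for the RNA-seq mapping, but the coordinates deposited with the FPKM follow GENCODE version 27 on GRCh38. The peak lists are on hg19, so genes were joined to GENCODE version 44 mapped to GRCh37. The join used the Ensembl identifier without its version, never position. From the ratio of coverage to FPKM, 5.67 and 5.52 Gb of aligned bases lay behind the libraries. Read counts, and so counting intervals, are unknown. For each ChIP-seq replicate, the authors used Bowtie2 for alignment and MACS2 for peak calling. Their deposited lists hold the limits of peaks and no score. Versions of HISAT2, Bowtie2 and MACS2 are not given in the sources used here. Each mark has 1 sample labelled as replicate 2 and 1 without a number, which was taken as replicate 1.

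A peak counted at a TSS where it lay, by at least 1 bp, within 1 kb of it. The interval overlap was checked on simulated intervals. Python 3.11.15 and matplotlib 3.10.9 were used. All 9 members are named, together with SLC2A14, genes sharing exon bases with a member, and from each list the 3 genes of highest mean FPKM and those listed at 0 in both libraries. SLC5A4 is the third of its list, and KHK and PDZK1IP1 were named after their values were seen. Some genes and 1 motif that these rules take in are not reported here. The members, lists and tests were chosen with earlier results of these data known. Promoter windows were read from GRCh37 for the 8 members with an entry in the RefSeq promoter table. Alternatives covered the unit, the threshold, the transcripts counted, the libraries and replicates, the TSS window and positions, and the overlap with the gene body.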

Additional observations from a re-analysis of the deposited data

How the results depend on the processing

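The count of 5 members at an FPKM of 1 in both libraries was the same with TPM, at an FPKM of 0.5 and from either library alone. It fell to 2 at an FPKM of 5, to 2 with protein-coding transcripts only, and to 3 over the exons of the canonical transcript. The count of 5 members with H3K4me3 at a TSS became 3 at TSSs of protein-coding transcripts only and 3 at the canonical TSS only, and was 6 with either replicate left out. The count of 4 with H3K27ac became 7 with a peak in either replicate, and lay between 4 and 7 with a replicate left out, where replicate 1 alone gave 7. The count of 1 with H3K27me3 became 2 within 2 kb, 3 with a peak in either replicate and 0 at the canonical TSS only, and was 2 with either replicate left out. The counts at the canonical TSS and over canonical exons were chosen after seeing the data. Shares of all protein-coding genes are given for the main settings only, so the counts under an alternative have no background beside them. Within 500 bp, the 3 mark counts did not change. Within 2 kb, the counts with H3K4me3 and with H3K27ac each rose to 6. A peak in either replicate gave 7 members with H3K4me3. Of the mean levels of single members under an alternative, 23 stayed within 1 SD and 13 moved. Those that moved did so in TPM through the change of unit, and with protein-coding transcripts only to lower values. With 2 libraries, the value of 1 of them always lies within 1 SD of the mean of both. Most of the 23 were therefore fixed in advance and do not measure stability. Of 54 counts of peaks in gene bodies, 53 stayed within 1.5 times when at least 50% of a peak had to lie inside the gene, and the H3K27ac count of SLC2A2 in replicate 1 went from 2 to 1. No paired analysis was possible because all samples share 1 condition and no result comes from a test between groups. Peak lists carry no score, so a missing peak cannot be told from a weak one.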
